A study of Equus caballus with 45 samples.

Results

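The small leucine-rich proteoglycans are secreted matrix proteins with a core of leucine-rich repeats. The rows of 8 of them were taken by their symbols from the count tables, which list 20881 protein coding genes. These are DCN (decorin), BGN (biglycan), LUM (lumican), FMOD (fibromodulin), PRELP (prolargin), OGN (osteoglycin, also called mimecan), ASPN (asporin) and CHAD (chondroadherin).

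RNA sequencing counts came from 45 horse libraries. Of these, 12 were bone marrow mesenchymal stromal cells (MSC) of the donor horses PC, 99 and 92. Each donor gave 1 library untreated, 1 after the TLR3 agonist polyinosinic:polycytidylic acid, 1 after the STING agonist 2′3′-cGAMP and 1 labelled CpG, a treatment that the methods do not describe. The other 33 libraries were joint cells, 11 each of synoviocytes, chondrocytes and monocyte-derived macrophages. In each joint cell type, 9 libraries came from cells given IL-1β and TNF-α and also conditioned medium (CM) of MSC from the donors PC, ORC and AG1. That medium was from resting MSC (resting MSC-CM), from MSC given the TLR3 agonist (TLR-MSC-CM) or from MSC given the STING agonist (STING-MSC-CM), with 3 libraries each. A further library had the cytokines only and another had no addition. The titles of these libraries also carry a donor label, PC for the synoviocyte library with cytokines only and ORC for all the others. Their descriptions name no donor, and they were treated as having none. According to the methods each joint cell type came from 1 healthy horse, so libraries of a joint cell type differ in the medium and not in the horse that gave the cells. Chondrocytes and synoviocytes were expanded in culture and frozen before use. The abstract has the cytokines washed off before the medium was given, while the methods name no wash between them. Both then have a wash and further culture, after which, by the methods, the cells were collected. Levels are thus from after the exposure and not from during it. The MSC donors were, by the methods, young horses of 1 breed and both sexes, of which the methods count 3 and the labels name 5. The labels and the methods differ in the unit of the agonist dose.

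Decorin and biglycan carry chains of chondroitin or dermatan sulfate, and asporin is their close relative without such chains. Lumican, fibromodulin and osteoglycin can carry keratan sulfate, and prolargin binds heparan sulfate and anchors basement membranes to the matrix. Several of these proteins bind fibrillar collagen and set the width and spacing of its fibrils, while chondroadherin binds integrins and is a protein of cartilage. In the horse annotation of RefSeq, which is of another assembly than that of the counts, 6 of the 8 genes lie in clusters of the family with no other protein coding gene between neighbours. ASPN and OGN share a cluster with ECM2 and OMD, DCN and LUM share another with EPYC and KERA, and FMOD and PRELP lie beside OPTC. BGN and CHAD stand apart from other family members.

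Total counts ran from 23525704 to 54103873 per library. Levels are given in CPM, the count as a share of the library's total multiplied by 1000000, and a count of 3, which was 0.0554 to 0.128 CPM, was taken as the floor of detection. No transcript lengths were used here, so levels are compared between samples and not between genes. The labelled cell types were checked by marker genes. All 9 macrophage markers analysed were over the floor in every macrophage library, with a summed level of 8506 to 11593 CPM, against 9.34 to 324 CPM in MSC, 12.6 to 19.6 CPM in synoviocytes and 10.8 to 40.4 CPM in chondrocytes. The high sums in MSC were almost wholly CD68, which was at 324 CPM in the STING agonist library of donor 99. Chondrocytes held only 3 of 9 cartilage markers over the floor in every library, and the cartilage collagen genes COL9A1 and COL11A2 were at or under the floor in all 11. MSC held 3 of 9 as well and synoviocytes 4 of 9, so this count did not set chondrocytes apart. The cartilage markers summed to 41.0 to 321 CPM in chondrocytes, 15.7 to 66.0 CPM in MSC and 8.62 to 22.7 CPM in synoviocytes. The synovial marker PRG4 was not analysed here, while the other 6 synovial markers were over the floor in every synoviocyte library and summed to 941 to 1377 CPM. These markers did not separate synoviocytes from chondrocytes (803 to 1212 CPM) or MSC (516 to 1168 CPM). The synoviocyte libraries with resting MSC-CM and with TLR-MSC-CM of donor ORC stood apart from those of AG1 and PC in their group. Their chi-square per degree of freedom was 34.9 and 25.1 with resting MSC-CM, where AG1 and PC differed by 9.49. With TLR-MSC-CM it was 30.3 and 29.6, against 6.36 between AG1 and PC, and with STING-MSC-CM 16.5 and 7.61, against 7.28. The 3 chondrocyte libraries with media of donor ORC also stood apart, with a chi-square per degree of freedom of 110 to 274 against the AG1 and PC libraries of the same group, where AG1 and PC differed from each other by 9.96 to 43.7. SOX9, the chondrocyte transcription factor, was at 42.1 to 67.6 CPM in these 3 libraries and at 7.53 to 10.6 CPM in the 6 with AG1 or PC media.

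The MSC of the 3 donor horses differed widely in these genes, and the members did not follow a common order of donors. By the mean of 4 conditions ASPN and OGN were highest in donor 92, FMOD and PRELP in donor PC, and DCN, BGN and LUM in donor 99. ASPN, which binds collagen and is known to restrain TGF-β in cartilage, was at 251 CPM untreated, 301 CPM after the TLR3 agonist, 361 CPM after the STING agonist and 439 CPM under CpG in donor 92. In donor PC the same conditions gave 9.31, 7.56, 9.42 and 5.39 CPM, and in donor 99 they gave 2.41, 1.77, 1.26 and 2.71 CPM. No condition brought the 3 donors into overlap. The mean was 338 ± 81 CPM in donor 92 (SD, n = 4 conditions) and 2.03 CPM in donor 99, a 166-fold range.

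FMOD, a collagen-binding proteoglycan that is abundant in tendon and cartilage, was lowest in the donor with the most ASPN. It was at 556, 515, 653 and 425 CPM in donor PC, in the order untreated, TLR3 agonist, STING agonist and CpG. Donor 99 had 114, 101, 117 and 111 CPM, and donor 92 had 9.29, 11.99, 14.1 and 14.6 CPM. The donor means thus spanned 43.0-fold with no overlap. OGN, a proteoglycan first purified from bone, was at 100.3, 99.9, 151 and 126 CPM in donor 92, but at 13.3, 13.3, 15.9 and 10.5 CPM in donor PC and at 15.7, 11.3, 9.74 and 13.6 CPM in donor 99. Donor 92 was separate from the others, which overlapped.

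The other members varied less between donors. DCN averaged 2064 CPM in donor 99, 1531 CPM in donor 92 and 563 CPM in donor PC (n = 4 each), and the lowest donor 92 value of 1454 CPM was above the highest donor PC value of 653 CPM. LUM averaged 7055 CPM in donor 99 and 2629 CPM in donor 92, a 2.68-fold range. BGN ranged 1.70-fold, from 4348 CPM in donor 99 to 2562 CPM in donor 92, and PRELP ranged 2.25-fold, from 56.1 CPM in donor PC to 24.9 CPM in donor 99. CHAD was near 1 CPM in every MSC library, with 0.520 to 1.48 CPM.

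**Figure D1:**
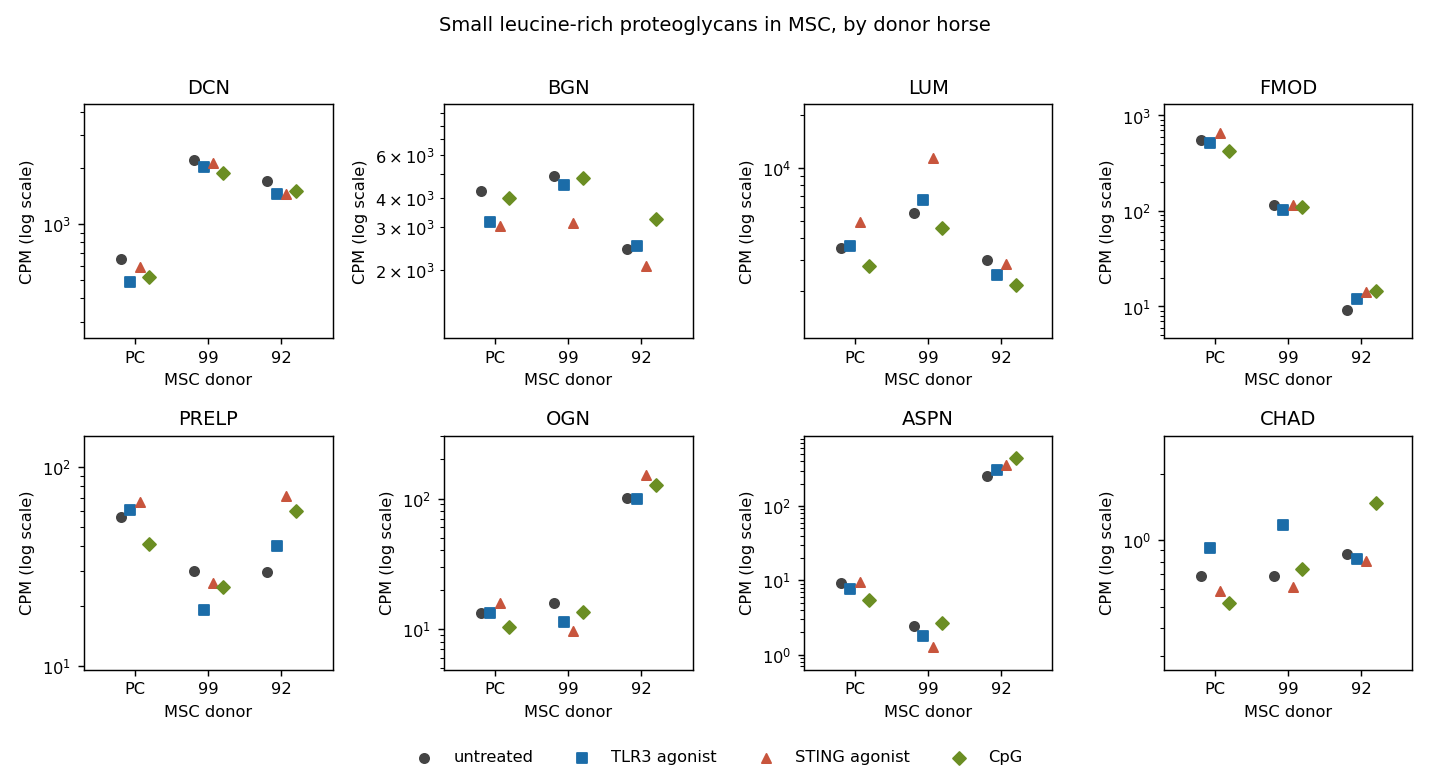
CPM on a log scale (vertical axis) of each of the 8 genes in the 12 MSC libraries, by donor horse (horizontal axis), with 1 point per condition and no averaging. ASPN is highest in donor 92 at 251 to 439 CPM and FMOD in donor PC at 425 to 653 CPM, and for both genes the 4 conditions of a donor lie apart from those of the other donors.

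The donor term, in a model that also held the condition, was tested with the quasi-likelihood F test of edgeR, and p-values were adjusted over all genes by Benjamini-Hochberg. It was called, at an adjusted p-value under 0.05, for 7 of the 8 members, against 55.9% of the 15099 genes tested. The largest difference between 2 donors on the log2 scale was 7.32 for ASPN (adjusted p = 2.63e-08), 5.44 for FMOD (adjusted p = 1.56e-08), 3.18 for OGN (adjusted p = 2.32e-07), 1.93 for DCN (adjusted p = 5.16e-07) and 1.40 for LUM (adjusted p = 1.32e-04). For PRELP it was 1.12 (adjusted p = 0.0052) and for BGN 0.82 (adjusted p = 6.07e-04), while CHAD was not called at 0.55 (adjusted p = 0.34). The median over all genes was 0.72. The 4 libraries of a donor are cells of 1 horse under 4 conditions, so the test sets these 3 horses against the spread that remains among the 4 libraries of each, and donor and culture cannot be told apart.

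Genes that build the sugar chains and the collagen around these proteins were tested in the same way. The donor term was called for 11 of 19 tested genes of chondroitin and dermatan sulfate synthesis, 5 of 6 of keratan sulfate synthesis, 12 of 14 of fibrillar collagens and their partners and 6 of 9 of matrix proteases, beside 55.9% of all genes. CHST2, a sulfotransferase of keratan sulfate, was at 34.1 ± 7.9 CPM in donor 99 and 22.5 ± 2.7 CPM in donor PC but at 3.07 ± 0.38 CPM in donor 92 (SD, n = 4). COL14A1, a fibril-associated collagen, was at 19.2 ± 5.4 CPM in donor 92 and at 0.172 CPM in donor 99 and 0.0397 CPM in donor PC, where counts did not exceed 14 and 2. COL6A3, a chain of collagen VI, was at 413 CPM in donor 92 against 3121 CPM in donor 99. MMP13, a collagenase, was at 7.97 ± 5.68 CPM in donor 99 and under 1 CPM in the others.

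Of 10 further members of the family, 8 were called between MSC donors, beside the same 55.9% of all genes. Genes of 1 cluster did not share an order of donors. OMD (osteomodulin), which lies between ASPN and OGN, was lowest in donor 92 at 5.23 CPM and highest in donor PC at 25.6 CPM, whereas both neighbours were highest in donor 92. ECM2 was likewise lowest in donor 92 at 32.6 CPM against 59.0 CPM in donor PC. PODN (podocan) was highest in donor 92 at 203 CPM and lowest in donor PC at 61.5 CPM. PODNL1 was highest in donor 99 at 115 CPM and lowest in donor 92 at 13.6 CPM. TSKU ranged from 29.0 CPM in donor 92 to 46.3 CPM in donor 99. KERA was at 1.48 CPM in donor 92 and 0.137 CPM in donor 99. OPTC was at 0.509 CPM in donor 92 and 0.162 CPM in donor 99. NYX had no count in donor 92 and at most 7 in a library of the others. EPYC was at 0.498 to 1.54 CPM, and CHADL was over the floor in 2 of 12 MSC libraries.

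Activated MSC were compared with untreated MSC next. None of the 8 members was called with either agonist or CpG, and 0 genes (0.0%) were called in any of the 4 MSC comparisons with edgeR. Unadjusted p-values were under 0.05 for 171 genes with the TLR3 agonist, 312 with the STING agonist, 36 for STING against TLR3 and 46 for CpG, and for 0 members in each. With the donor as a block 2 genes and 0 members were called with the STING agonist. DESeq2 called 48, 93, 1 and 0 genes in these comparisons and 0 members in each. Differences of the members lay between -0.13 and 0.44 on the log2 scale with the TLR3 agonist, between -0.50 and 0.68 with the STING agonist and between -0.35 and 0.75 with CpG.

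The direction within donors was uniform for some members. After the STING agonist FMOD was higher and CHAD lower in 3 of 3 donors, and under CpG LUM was lower in 3 of 3. BGN was lower after the STING agonist in 3 of 3 donors, at 3141 CPM against 4901 CPM untreated in donor 99, 3036 against 4244 CPM in donor PC and 2064 against 2435 CPM in donor 92. The difference was -0.50 on the log2 scale (SE 0.37, adjusted p = 1.00). The fits given in this paragraph held no donor term. Their SE therefore includes the spread between horses and does not measure the change within donors. LUM after the STING agonist was at 11487 CPM in donor 99 and 4982 CPM in donor PC, against 5579 and 3520 CPM untreated, but at 2854 CPM in donor 92 against 3000 CPM untreated. DCN was lower in 3 of 3 donors after each agonist and under CpG, comparisons that share the untreated libraries. All 3 donors were lower for 9.56% of genes with the TLR3 agonist, 12.3% with the STING agonist and 9.96% with CpG. In donor PC it was at 653 CPM untreated and at 488 CPM after the TLR3 agonist, 590 CPM after the STING agonist and 522 CPM under CpG. The treated and untreated groups overlapped for each of these genes. Of the members with the smallest p-values in the other comparisons, CHAD differed by 0.44 (SE 0.43, adjusted p = 1.00) with the TLR3 agonist and by -0.62 (SE 0.43, adjusted p = 1.00) with STING against TLR3, and LUM by -0.35 (SE 0.56, adjusted p = 1.00) with CpG. Over these 4 comparisons CHAD was also the only member without overlap, since it was lower in all 3 STING libraries (0.589 to 0.805 CPM) than in all 3 TLR3 libraries (0.824 to 1.18 CPM), as were 0.552% of genes.

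Chondrocytes and synoviocytes were set side by side in the same condition, cytokines with resting MSC-CM. Chondrocytes held more FMOD, BGN and LUM, and synoviocytes more ASPN and OGN. Each cell type came from cells of 1 horse, so the comparison sets a single source of each against the other, and in bulk libraries fewer cells of a type and less RNA per cell cannot be told apart either. Values below are in the order of the medium donors AG1, ORC and PC.

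ASPN was at 32.3, 13.7 and 27.3 CPM in synoviocytes and at 0.748, 0.794 and 1.24 CPM in chondrocytes. The groups were far apart, and ASPN was 26.6-fold lower in chondrocytes (log2 difference -4.74, SE 0.39, adjusted p = 1.38e-04). OGN was at 92.9, 40.8 and 82.3 CPM in synoviocytes and at 14.5, 12.6 and 12.5 CPM in chondrocytes, again with no overlap. It was 5.50-fold lower in chondrocytes (log2 difference -2.46, SE 0.29, adjusted p = 9.15e-04). DCN, which regulates collagen fibril width and binds growth factors, was at 3442, 2508 and 3385 CPM in synoviocytes and at 2520, 2809 and 2383 CPM in chondrocytes. These ranges overlapped because of the ORC library, and DCN was not called (log2 difference -0.28, SE 0.17, adjusted p = 0.26). Without that library its difference was -0.44 (adjusted p = 0.069).

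FMOD was at 54.5, 22.4 and 42.2 CPM in synoviocytes and at 386, 262 and 328 CPM in chondrocytes. It was 8.09-fold higher in chondrocytes (log2 difference 3.02, SE 0.32, adjusted p = 5.00e-04). BGN was at 2017, 1708 and 1838 CPM in synoviocytes and at 3677, 3180 and 3358 CPM in chondrocytes, 1.83-fold higher (log2 difference 0.87, SE 0.13, adjusted p = 0.0022). LUM was at 4477, 4213 and 4641 CPM in synoviocytes and at 6590, 8302 and 6688 CPM in chondrocytes, 1.61-fold higher (log2 difference 0.69, SE 0.15, adjusted p = 0.014). PRELP overlapped, with 379, 142 and 308 CPM in synoviocytes and 518, 369 and 437 CPM in chondrocytes (log2 difference 0.66, SE 0.33, adjusted p = 0.19). CHAD did not overlap, with 1.07, 0.588 and 0.448 CPM in synoviocytes and 1.26, 1.55 and 1.50 CPM in chondrocytes, yet was not called (log2 difference 1.00, SE 0.39, adjusted p = 0.11).

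**Figure D2:**
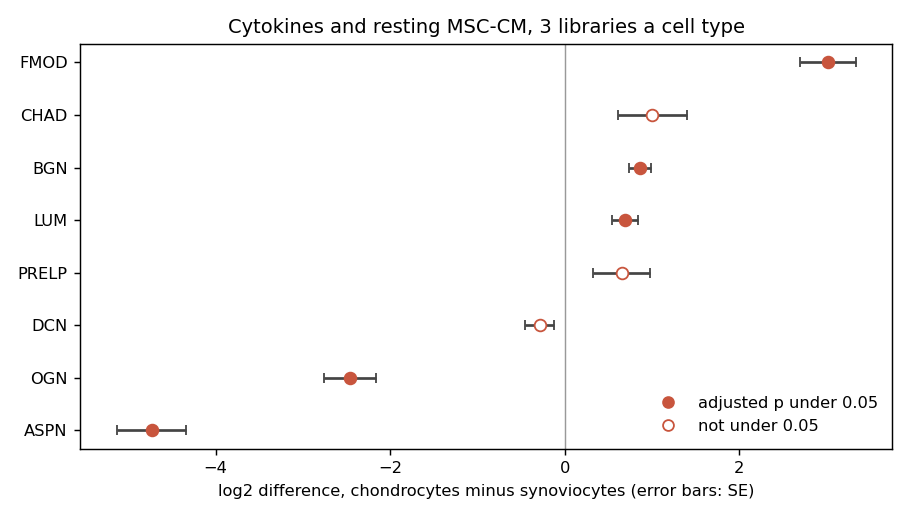
Log2 difference of each gene, chondrocytes minus synoviocytes, with cytokines and resting MSC-CM (horizontal axis); error bars are SE of the fit over 3 libraries per cell type and filled points have an adjusted p-value under 0.05. ASPN at -4.74 and OGN at -2.46 lie on the synoviocyte side, and FMOD at 3.02 on the chondrocyte side.

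In all 5 of the 8 members were called, against 21.7% of the 14217 genes tested. Of these 3 were higher and 2 lower in chondrocytes, against 10.3% and 11.4% of genes. The median difference was 0.67 over the 8 members and 0.01 over all genes. No overlap was seen for 4 members higher and 2 lower, against 19.7% and 20.4% of genes. Leaving out a library gave 4 to 6 calls. LUM lost its call without the synoviocyte library of donor AG1 (adjusted p = 0.056) or of donor PC (adjusted p = 0.064), and PRELP gained one without the chondrocyte library of donor ORC (adjusted p = 0.049). Without the synoviocyte library of donor ORC the difference of PRELP was 0.32. Averaged over the 3 media, 7 members were called, DCN (-0.49, adjusted p = 4.90e-04) and CHAD (1.12, adjusted p = 4.51e-04) among them, beside 7416 of 15266 genes. That fit held 18 libraries, still with cells of 1 horse per cell type.

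Enzymes of sugar chain synthesis were compared as well. CHST1 and CHST2, both sulfotransferases of keratan sulfate, were higher in chondrocytes, and these were the 2 genes called among 5 of that list, beside 21.7% of all genes. CHST1 was at 6.35 ± 0.54 CPM in chondrocytes and 0.744 ± 0.258 CPM in synoviocytes (SD, n = 3, log2 difference 3.08, adjusted p = 1.65e-04). CHST2 was at 30.2 ± 5.1 and 16.7 ± 2.1 CPM (log2 difference 0.84, adjusted p = 0.0059). Of 18 tested genes of chondroitin and dermatan sulfate synthesis, 3 were higher and 4 lower. The polymerising enzyme CHSY1 was at 78.5 ± 13.1 CPM in chondrocytes and 39.6 ± 1.0 CPM in synoviocytes (log2 difference 0.98, adjusted p = 9.89e-04), and CHST15, which adds sulfate to chondroitin, was at 44.6 ± 2.7 and 11.1 ± 4.9 CPM (log2 difference 2.02, adjusted p = 0.0011). The sulfotransferase CHST7 was at 2.40 ± 0.60 CPM in synoviocytes and at most 5 counts in chondrocytes. CHSY3 was at 62.7 ± 2.4 CPM in synoviocytes and 43.9 ± 1.3 CPM in chondrocytes.

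Among proteases that process or cleave matrix proteoglycans, 3 of 10 were higher and 4 lower, beside the 10.3% and 11.4% of all genes. MMP13 was at 3969 ± 926 CPM in chondrocytes and 375 ± 165 CPM in synoviocytes (log2 difference 3.39, adjusted p = 7.32e-04). TLL1, a relative of the protease BMP1 that trims procollagen and pro-biglycan, was at 23.9 ± 0.63 CPM in synoviocytes and 0.738 ± 0.227 CPM in chondrocytes (log2 difference -5.04, adjusted p = 3.98e-06). ADAMTS5, an aggrecanase, was at 319 ± 9.94 CPM in synoviocytes and 153 ± 33 CPM in chondrocytes (log2 difference -1.07, adjusted p = 0.0017). BMP1 was also lower in chondrocytes, at 537 ± 52 CPM against 894 ± 40 CPM (log2 difference -0.74, adjusted p = 0.0030). Of 13 fibrillar collagen genes and partners, 1 was higher and 2 lower, a share near that of all genes. COL1A2 was at 10101 ± 3707 CPM in chondrocytes and 23580 ± 277 CPM in synoviocytes. Of the 10 further family members, 2 were called, again a share near that of all genes, and both were lower in chondrocytes. PODN was at 13.4 ± 3.0 CPM against 48.8 ± 17.9 CPM (log2 difference -1.87, adjusted p = 0.0030) and ECM2, the neighbour of ASPN, at 24.1 ± 4.0 CPM against 57.0 ± 13.6 CPM (log2 difference -1.25, adjusted p = 0.0044).

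IL-1β and TNF-α were compared with no addition by 1 library each, so there is no test and intervals are 95% Poisson intervals for counting error only. In chondrocytes 4 members were at least 2-fold lower with the cytokines, against 9.11% of genes, and 0 were 2-fold higher. ASPN was at 22.9 CPM with no addition (594 counts, interval 21.1 to 24.8 CPM) and at 0.480 CPM with cytokines only (19 counts, interval 0.289 to 0.750 CPM), a 47.7-fold difference. OGN was at 248 CPM with no addition (interval 242 to 254 CPM) and 10.9 CPM with cytokines only (interval 9.87 to 11.9 CPM), a 22.8-fold difference. FMOD was at 1274 CPM and 310 CPM, 4.10-fold lower with cytokines. PRELP was at 814 CPM and 339 CPM, 2.40-fold lower.

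The low levels were shared by every chondrocyte library given cytokines, with or without MSC medium. Over these 10 libraries ASPN was at 0.352 to 1.24 CPM, OGN at 7.88 to 22.7 CPM, FMOD at 244 to 434 CPM and PRELP at 322 to 625 CPM. The library with no addition was above all 10 for 7 members, against 25.7% of genes. DCN and BGN were among them, at 4416 and 5407 CPM against highest values of 3011 and 3678 CPM. CHAD was above them too at 2.01 CPM, where the highest was 1.93 CPM, a distance within counting error. LUM alone lay inside, at 7041 CPM with no addition and 6961 CPM with cytokines only. The summed level of cartilage markers was 321 CPM in the library with no addition and 41.0 to 109 CPM in the other 10. ACAN, the large proteoglycan of cartilage, was at 101 CPM with no addition and 6.12 CPM with cytokines only, and over the other 9 libraries it was at 7.07 to 21.0 CPM. COMP was at 170 CPM and 29.1 CPM, and at 15.6 to 35.0 CPM over the other 9. SOX9 was at 48.8 CPM and 8.95 CPM, but with the media of ORC it was at 42.1 to 67.6 CPM, so it was not low in every library with cytokines. The part of these marker shifts in the result was not tested.

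In synoviocytes the same 3 genes stood out with smaller differences. ASPN was at 195 CPM with no addition (interval 190 to 200 CPM) and 28.3 CPM with cytokines only (interval 26.3 to 30.3 CPM), 6.90-fold lower. OGN was at 276 CPM and 88.9 CPM, 3.11-fold lower, and FMOD at 150 CPM and 54.2 CPM, 2.76-fold lower. These 3 of 8 members compare with 4.31% of genes at least 2-fold lower, and 0 members were 2-fold higher. ASPN was at 13.7 to 42.1 CPM, OGN at 40.8 to 104 CPM and FMOD at 22.4 to 78.0 CPM over the 10 libraries with cytokines, all below the library with no addition. BGN was above all 10 as well, at 2367 CPM. LUM went the other way, with 3822 CPM with no addition and 4776 CPM with cytokines only, and was below all 10. DCN was at 3719 and 3661 CPM, PRELP at 527 and 350 CPM and CHAD at 0.442 and 0.726 CPM, all inside the range of the 10. The 4 members above compare with 20.6% of genes, and the 1 below with 20.6%. Of 6 synovial markers 2 were 2-fold lower with cytokines only, as were 2 of 6 MSC markers, of which 5 were highest in the library with no addition. The part of these shifts in the result was not tested. Whether chondrocytes and synoviocytes differ in this response was not tested, since each had 1 library per condition.

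Other genes of the ASPN and OGN cluster were also lower with cytokines. OMD was at 108 CPM with no addition and 7.33 CPM with cytokines only in chondrocytes, and at 15.2 and 6.28 CPM in synoviocytes. ECM2 was at 62.2 and 19.2 CPM in chondrocytes and at 102 and 69.5 CPM in synoviocytes. PODN, which lies elsewhere in the genome, was at 69.5 and 11.1 CPM in chondrocytes and at 109 and 57.7 CPM in synoviocytes. Of the 10 further family members, 8 were over the floor in chondrocytes, of which 4 were 2-fold lower and 1 was 2-fold higher, beside 9.11% and 6.37% of all genes. In synoviocytes all 10 were over the floor, of which 2 were 2-fold lower, beside 4.31% of genes. Among fibrillar collagens and partners 5 of 14 were 2-fold lower in chondrocytes and 2 of 13 in synoviocytes, beside the same 9.11% and 4.31%, with none 2-fold higher in either. Of the chain synthesis genes, 0 of 18 for chondroitin and dermatan sulfate were 2-fold lower and 1 was 2-fold higher in chondrocytes, with 1 lower and 1 higher of 18 in synoviocytes, and 0 of 5 for keratan sulfate differed 2-fold in either. Of 10 proteases 2 were lower and 3 higher in chondrocytes, and 0 were lower and 2 higher in synoviocytes, where 4.98% of all genes were higher.

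**Figure D3:**
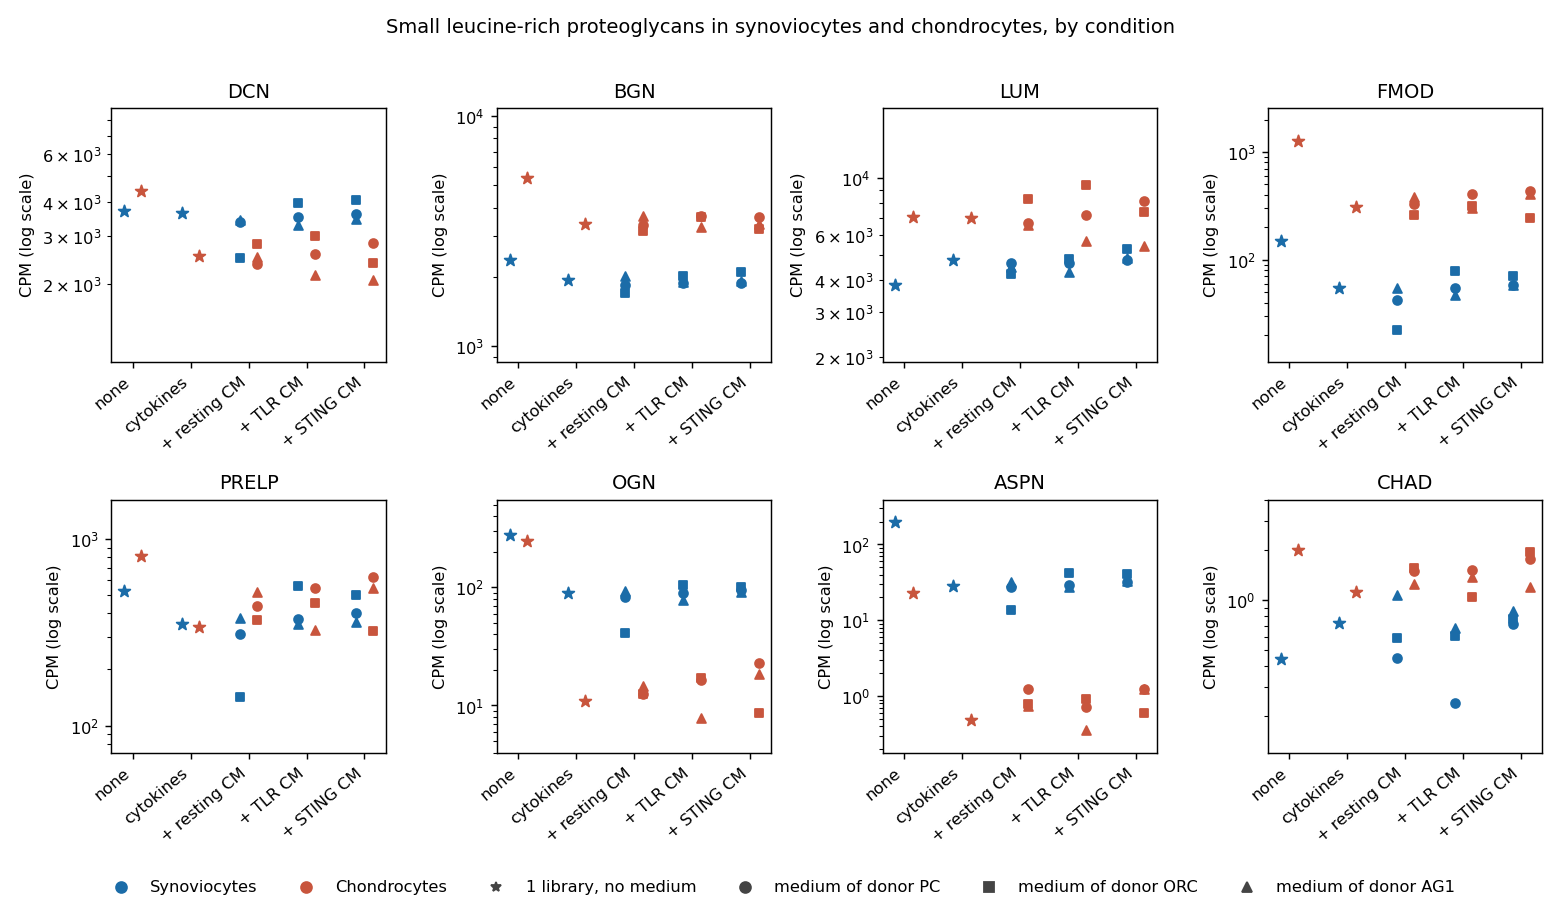
CPM on a log scale (vertical axis) of each gene in synoviocytes (blue) and chondrocytes (red) under 5 conditions (horizontal axis); every point is 1 library, stars have no MSC medium, and circles, squares and triangles mark the medium of donors PC, ORC and AG1. In chondrocytes ASPN and OGN stand at 22.9 and 248 CPM with no addition and at 0.480 and 10.9 CPM with cytokines only, and the medium libraries stay near the latter.

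Resting MSC-CM was given as well as the cytokines in 3 libraries per cell type, which were set against the 1 library with cytokines only. In chondrocytes 4 members had the cytokines-only library below all 3 with resting MSC-CM, against 22.1% of genes, and 0 had it above. ASPN was at 0.480 CPM (19 counts) against 0.748 to 1.24 CPM and CHAD at 1.11 CPM (44 counts) against 1.26 to 1.55 CPM. For both of these the distance to the lowest library with resting MSC-CM was within counting error. OGN was at 10.9 CPM against 12.5 to 14.5 CPM and PRELP at 339 CPM against 369 to 518 CPM. In synoviocytes 0 members had the cytokines-only library below the resting MSC-CM libraries and 2 had it above, against 23.7% and 24.3% of genes. These were DCN at 3661 CPM against 2508 to 3442 CPM and LUM at 4776 CPM against 4213 to 4641 CPM. In macrophages 4 members had the cytokines-only library below, against 23.8% of genes. These were DCN at 0.204 CPM (5 counts) against 0.478 to 2.60 CPM and BGN at 0.409 CPM (10 counts) against 0.585 to 1.51 CPM. The others were LUM, with no count against 0.0266 to 0.545 CPM, and PRELP, at or under the floor in all. The lowest LUM value with resting MSC-CM was 1 count, so LUM and PRELP were placed by counts under the floor.

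The media of activated MSC were then compared with resting MSC-CM. In synoviocytes edgeR called 0.0% of the 14584 genes and 0 members with TLR-MSC-CM, with STING-MSC-CM or between them. Unadjusted p-values were under 0.05 for 1465, 1109 and 294 genes. Against resting MSC-CM, 2 members were among these, FMOD and PRELP, with either activated medium, and 0 members between the activated media. DESeq2 called 2, 0 and 0 genes and 0 members.

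FMOD in synoviocytes was at 54.5, 22.4 and 42.2 CPM with resting MSC-CM of AG1, ORC and PC, at 47.0, 78.0 and 55.0 CPM with TLR-MSC-CM and at 58.7, 69.9 and 58.2 CPM with STING-MSC-CM. The resting ORC library was the lowest, and with STING-MSC-CM all 3 libraries were above all 3 with resting MSC-CM. The log2 difference of FMOD was 0.58 (SE 0.24, adjusted p = 0.49) with TLR-MSC-CM and 0.63 (SE 0.24, adjusted p = 0.63) with STING-MSC-CM. Without the resting ORC library it was 0.28 and 0.33. PRELP was at 379, 142 and 308 CPM with resting MSC-CM, at 349, 561 and 372 CPM with TLR-MSC-CM and at 361, 504 and 403 CPM with STING-MSC-CM. Its log2 difference was 0.61 (SE 0.27, adjusted p = 0.50) and 0.59 (SE 0.27, adjusted p = 0.63), and without the resting ORC library it was 0.29 and 0.27. With TLR-MSC-CM both genes were higher than with resting MSC-CM in the pairs of ORC and PC and lower in that of AG1. These pairs follow the donor labels, which the synoviocyte data did not bear out. Deviations from group means correlated at -0.382 to 0.359 within a labelled donor and at -0.321 to 0.370 between donors.

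The resting ORC library was below the other 9 synoviocyte libraries with cytokines for 7 of the 8 members, against 16.3% of genes, with CHAD the exception. It held 2508 CPM of DCN against 3292 to 4084 CPM in the others, 142 CPM of PRELP against 308 to 561 CPM, 40.8 CPM of OGN against 78.4 to 104 CPM and 13.7 CPM of ASPN against 27.3 to 42.1 CPM. With STING-MSC-CM all 8 differences, which share the same resting libraries, were above 0, from 0.076 for BGN to 0.63 for FMOD. Of the members 3 (DCN, LUM and FMOD) did not overlap with resting MSC-CM, against 8.72% of genes. Without the resting ORC library the 8 differences ran from 0.0017, which is close to none, to 0.33. The same 3 members did not overlap, against 14.4% of genes. By donor label BGN, PRELP, OGN and CHAD were higher with STING-MSC-CM in only 2 of 3 pairs. LUM was at 4887, 5281 and 4807 CPM with STING-MSC-CM and at 4477, 4213 and 4641 CPM with resting MSC-CM. Between the activated media CHAD was higher with STING-MSC-CM with no overlap, as were 4.34% of genes, at 0.862, 0.771 and 0.717 CPM against 0.681, 0.606 and 0.240 CPM (log2 difference 0.69, SE 0.45, adjusted p = 1.00).

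**Figure D4:**
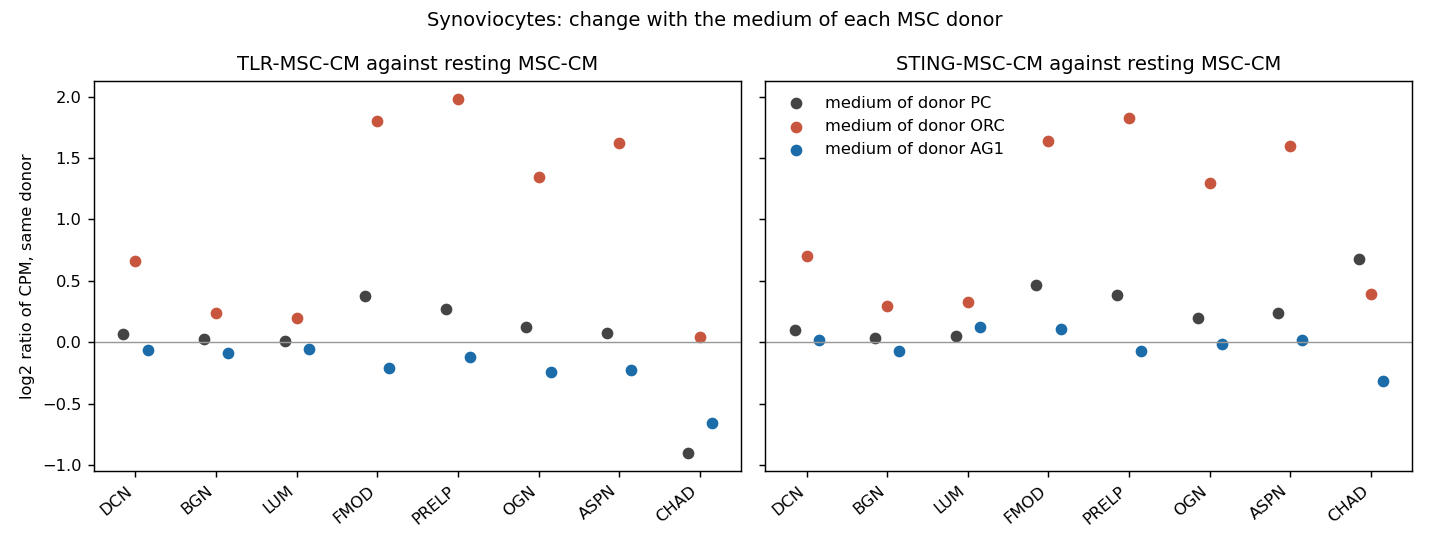
Log2 ratio of CPM in synoviocytes (vertical axis), TLR-MSC-CM (left) or STING-MSC-CM (right) against resting MSC-CM of the same labelled MSC donor, for each gene (horizontal axis) and with 1 point per donor. Libraries are matched by label only, since the check of pairing by labelled donor was not met in synoviocytes. The points of donor ORC lie highest for all 8 genes with TLR-MSC-CM and for the 7 other than CHAD with STING-MSC-CM. The resting library of that donor was the lowest of its group for FMOD and PRELP, at 22.4 and 142 CPM. Its libraries with activated media were the highest of their groups for both genes. They held 78.0 and 561 CPM with TLR-MSC-CM and 69.9 and 504 CPM with STING-MSC-CM.

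In chondrocytes none of the 8 members was called with the activated media. EdgeR called 0.0% of the 14304 genes and 0 members in the 3 comparisons, with unadjusted p-values under 0.05 for 80, 130 and 116 genes and for 0 members. DESeq2 called 0 genes in each, and a block for the medium donor called 2 genes and 0 members with STING-MSC-CM. ASPN was at 0.352, 0.920 and 0.721 CPM with TLR-MSC-CM of AG1, ORC and PC (log2 difference -0.45, SE 0.45, adjusted p = 1.00) and at 1.24, 0.595 and 1.24 CPM with STING-MSC-CM, a difference between them of 0.57 (SE 0.45, adjusted p = 1.00). OGN was at 18.4, 8.58 and 22.7 CPM with STING-MSC-CM (log2 difference 0.30, SE 0.36, adjusted p = 1.00). No member separated the groups without overlap in any of the 3 comparisons. Without the 3 libraries with media of ORC 0 members and 0 genes were called, and the members' differences lay between -0.79 and 1.09, the latter that of ASPN between the activated media. The change with a medium was also compared between the 2 cell types by an interaction term over 18 libraries, and 0 members and 0.0% of 15266 genes were called, with unadjusted p-values under 0.05 for 294 genes with TLR-MSC-CM and 272 with STING-MSC-CM, of which 0 were members. DESeq2 called 0 genes. With the smallest p-values, ASPN had a difference in change of -0.83 (SE 0.53, adjusted p = 1.00) with TLR-MSC-CM and DCN of -0.34 (SE 0.23, adjusted p = 1.00) with STING-MSC-CM. Without the synoviocyte library with resting MSC-CM of ORC these were -0.54 and -0.19, and without the 3 chondrocyte libraries with media of ORC -1.13 and -0.26.

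The MSC donor of the medium was tested across the 3 media. In chondrocytes 3 of 8 members were called, a share near the 40.1% of all genes. LUM was at 6590, 5694 and 5411 CPM with the media of AG1, at 8302, 9379 and 7405 CPM with those of ORC and at 6688, 7188 and 8114 CPM with those of PC (largest difference 0.57 on the log2 scale, adjusted p = 0.0023). DCN averaged 2255 CPM with AG1 and 2737 CPM with ORC (0.34, adjusted p = 0.035). FMOD averaged 275 CPM with ORC and 389 CPM with PC (0.46, adjusted p = 0.017), the reverse order of LUM for these 2 donors. LUM stayed called with any single library left out. Without the resting library of ORC or the TLR-MSC-CM library of PC it was the only member called, as with DESeq2. DCN also lost its call without the TLR-MSC-CM library of AG1 or ORC or the STING-MSC-CM library of AG1 (adjusted p = 0.12 to 0.15). FMOD lost its call without the STING-MSC-CM library of ORC too (adjusted p = 0.14). PRELP gained a call without the resting library of PC or the TLR-MSC-CM library of AG1 or ORC (adjusted p = 0.0041 to 0.043). The libraries with media of ORC stood apart and had the high SOX9 given above. Without all 3 of them, 0 members and 0 of 13967 genes were called between AG1 and PC, with unadjusted p-values under 0.05 for 2270 genes and 3 members, and the differences were 0.34 for LUM (adjusted p = 0.20), 0.24 for DCN (adjusted p = 0.30) and 0.12 for FMOD (adjusted p = 0.61). That fit had fewer libraries and 1 donor less, so the lost calls alone do not show that they rested on the media of ORC. The part of SOX9 or of whatever else set the libraries with media of ORC apart was not tested.

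In synoviocytes 0 of 8 members and 0.0% of genes were called between medium donors, with unadjusted p-values under 0.05 for 413 genes and 0 members, and DESeq2 called 3 genes. Without the resting ORC library edgeR called 4 of the 8 members (DCN, FMOD, PRELP and ASPN), beside 710 of the 14498 genes tested. PRELP then had the largest difference between donors among these 4, at 0.51 on the log2 scale (adjusted p = 3.90e-06), with FMOD at 0.44, ASPN at 0.48 and DCN at 0.22.

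Macrophages held almost none of these transcripts. FMOD, PRELP and ASPN were at or under the floor in all 11 libraries. The highest levels were 2.60 CPM for DCN, 1.51 CPM for BGN and 1.29 CPM for LUM. DCN was highest with resting MSC-CM of AG1 at 2.60 CPM and with TLR-MSC-CM of ORC at 2.08 CPM, where LUM was at 0.545 and 1.29 CPM, and was at 0.0386 CPM (1 count) with no addition. LUM had no count with no addition and with cytokines only. Whether such low counts came from the macrophages or from other RNA was not tested. EdgeR tested 6 of the 8 members and called 0 of them and 0.0% of 15052 genes in the 3 medium comparisons, with unadjusted p-values under 0.05 for 320, 717 and 994 genes. With the medium donor as a block 0, 80 and 336 genes were called and 0 members. DESeq2 called 9 genes with STING-MSC-CM and 31 for STING-MSC-CM against TLR-MSC-CM, with 0 members. Between medium donors 0 of 6 members were called, against 15.4% of genes, and leaving out the TLR-MSC-CM library of AG1 gave 1 call, of DCN. Since most members were at a few counts here, no fold is given. In the further family members PODN was at 1.28 to 2.75 CPM and TSKU at 1.14 to 2.71 CPM in macrophages, CHADL was over the floor in all 11, and EPYC had no count in any.

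The levels of the further members in the joint cells complete the family. PODNL1 was at 29.6 to 52.8 CPM in synoviocytes and 31.4 to 68.6 CPM in chondrocytes, and TSKU at 25.2 to 30.9 CPM and 25.3 to 38.6 CPM. EPYC, KERA, NYX, OPTC and CHADL did not exceed 0.947 CPM in synoviocytes and 1.66 CPM in chondrocytes.

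Across the means of the 19 groups, log2(CPM + 1) of DCN, BGN and LUM ran together, with a Pearson correlation of 0.985 for DCN with BGN, 0.993 for DCN with LUM and 0.996 for BGN with LUM. ASPN was closest to OGN among the members at 0.893, and at 0.515 with FMOD and 0.225 with CHAD. These are descriptions over groups that share horses, and 5 of the groups are macrophages with little of any member. Among 13621 genes, those nearest to DCN were COL3A1, DZIP1 and SLC22A17 (0.998 to 0.999), to BGN COL16A1, ARMC10 and TTC39A (0.999 to 1.00) and to LUM LAMB1, NFATC4 and MXRA8 (0.999). FMOD was nearest to CLEC11A, QSOX1 and NT5E (0.991 to 0.995), PRELP to ENPP1, PDGFRA and TBX5 (0.997 to 0.998) and OGN to COLEC12, CLMN and ABI3BP (0.983 to 0.989). ASPN was nearest to ALDH1A3, SLC1A4 and a gene listed by an Ensembl identifier only (0.963 to 0.966), and CHAD to CPE, CADM4 and KCNH2 (0.963 to 0.969).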

How the data were processed

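The deposited values were whole-number counts per protein coding gene, without normalization. According to the methods and labels, the authors aligned trimmed reads (cutadapt 1.12) by STAR to the EquCab3.0 build, with counting by HTSeq 0.11.0. The largest counts, 41 values of 6 genes with no member among them, are written to 3 digits only. Groups were taken from the sample labels. Levels are CPM on the library total. Tests used edgeR 4.0.16 (TMM, quasi-likelihood, R 4.3.3) on genes with at least 10 counts in total, fitted per cell type, with Benjamini-Hochberg adjustment over all genes and a threshold of 0.05. DESeq2 1.42.0, other scaling and filters, a donor block and leaving out each library were alternatives, and leaving out the chondrocyte libraries with ORC media was added after seeing the data. Scripts were tested on simulated data. Floors and intervals cover counting error only, since reads carry no molecular identifiers.

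The 8 members and all gene lists were chosen with earlier results of these data known. Named genes were all members, every further family member by its level, up to 3 called genes per direction and comparison of the other lists, and the 3 genes most like each member. Median correlations of same-donor deviations from group means were 0.067 in synoviocytes, 0.440 in macrophages, 0.676 in chondrocytes and 0.831 in MSC. The check of pairing by labelled donor was met in all but synoviocytes. In chondrocytes it did not tell AG1 from PC, which correlated at up to 0.613, over the lowest same-donor value of 0.570. Different donors reached 0.375 in macrophages, where the lowest same-donor value was 0.339. Nothing says that a donor's libraries came from separate cultures. No 2 libraries of a group agreed within sampling noise (lowest chi-square per degree of freedom 6.36).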

Additional observations from a re-analysis of the deposited data

How the results depend on the processing

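With the MSC donor as a replicate block, 0 members were called in the treatment comparisons and 5 between chondrocytes and synoviocytes, so the block changed no member's call. It raised the calls over all genes from 0 to 2 with the STING agonist in MSC, 2 with STING-MSC-CM in chondrocytes, 80 with STING-MSC-CM in macrophages and 336 for STING-MSC-CM against TLR-MSC-CM in macrophages. In synoviocytes, where the check of pairing was not met, it called 0 genes. Members called between medium donors in chondrocytes were 3, with 1 under DESeq2, 0 when the 3 libraries with ORC media were left out (chosen after seeing the data, and with fewer samples and 1 donor less) and 1 to 4 when a library was left out (1 without the resting library of ORC or the TLR-MSC-CM library of PC). The same counts without a library ran from 0 to 4 in synoviocytes and from 0 to 1 in macrophages, against 0 with all libraries (4 without the resting library of ORC and 1 without the TLR-MSC-CM library of AG1). OGN with STING-MSC-CM in chondrocytes ran from -0.013 to 0.59, being below 0 only without the STING-MSC-CM library of PC. Of 82 member differences given only as part of a range, 59 changed sign under some alternative and 0 were called under any. Calls over all genes between medium donors in chondrocytes were 5739, and 0 without the libraries with ORC media. Calls over all genes between chondrocytes and synoviocytes were 3092, 7416 averaged over the 3 media and 1759 to 5445 without a library. Between medium donors in macrophages they were 2322, and 980, 1017 or 1279 without the resting library of AG1, that of PC or the TLR-MSC-CM library of PC. With the TLR3 agonist they were 0, and 51 without the TLR3 library of donor 92, which also gave 54 with the STING agonist. No filter on low counts gave 1 gene with TLR-MSC-CM in synoviocytes. TMM scaling over all libraries moved mean levels by a factor of 0.923 to 1.04. Depth limits ASPN in chondrocytes with cytokines, at 10 to 52 counts, and FMOD, PRELP and ASPN in macrophages, at 3 counts or fewer.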
